A study of Xenopus laevis with 6 samples.

Results

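The 3 untreated samples of a 6-array study of the Xenopus laevis pronephros were described here on their own: every untreated array was used, 3 of 6, and the 3 arrays of bhh-treated explants were left aside. Each untreated sample was a pool of 300 explants, blocks of about 70 × 100 × 70 µm cut out of the left and right flanks of stage 24 embryos, and each pool was hybridised to its own array. The labels give no strain, no age in hours and no mock treatment for the untreated pools, and they do not say whether the pools came from separate clutches, so the spread between arrays may be partly technical. The values are signals of probe sets, groups of short probes for a transcript, some of which, marked by suffixes, can read several transcripts. Of 15491 probe sets apart from array controls, 9304 carried 1 gene symbol, for 7531 named genes.

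The pronephros is the kidney of the tadpole. It arises from intermediate mesoderm beside the somites, under the epidermis and above the lateral plate, so a block of flank tissue holds a kidney rudiment among muscle, skin and mesodermal neighbours. At the tailbud stages the rudiment expresses transcription factor genes such as lhx1 and pax8, while most transporters of its tubules are switched on later. X. laevis also carries pairs of genes left from an ancient genome duplication, named .L and .S for the long and short chromosome of each pair.

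A signal here is on a linear scale, and its rank is a rank of signal and not of RNA amount, since probe sets differ in how strongly they respond. Among 1166 named genes with several probe sets and at least 1 of them above the control level, the brightest exceeded the dimmest by a median of 2.92-fold, and by over 10-fold in 207 genes (17.8%). For krt70.S the 4 probe sets ranged between 183 and 30485. Each gene is represented below by its brightest probe set, a mean over arrays is a geometric mean, and a gene is called above or below a level by that mean unless arrays are named. In tissue pieces of mixed content, fewer cells of a type and less RNA per cell cannot be told apart.

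The explants gave signal for most of what the array measures. Probe sets for bacterial genes and tags, 44 in all, read no frog gene, and 95% of their values on the 3 arrays lay below 41.4, a signal called the control level from here on. On arrays 1, 2 and 3, 12337, 12018 and 11881 probe sets lay at or above it, 78.0% ± 1.51 (SD, n = 3) of those measured. By their means, 11987 probe sets (77.4%) and 6357 named genes (84.4%) did so, and 2594 probe sets were below it on every array. The median mean signal was 157 over all probe sets and 258 over named genes. Probe sets with no symbol had a lower median, 92.6, against 228 for those with 1 symbol.

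**Figure D1:**
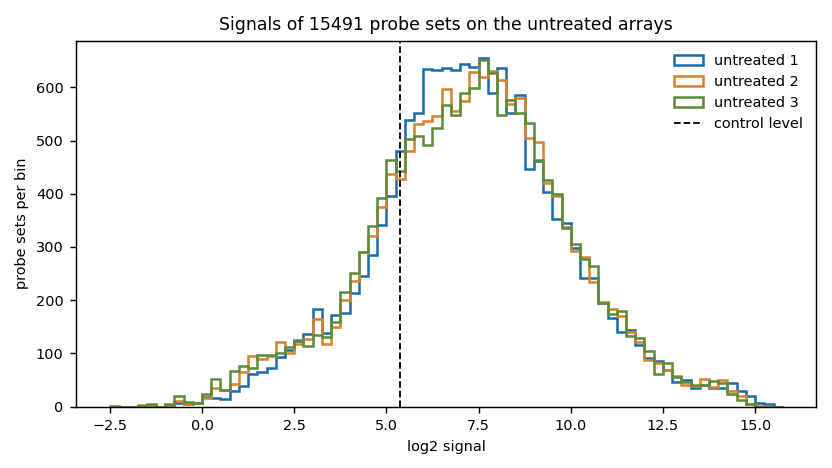
Number of probe sets (vertical axis, per bin of 0.25) by log2 signal (horizontal axis) on each of the 3 untreated arrays, with the control level of 41.4 as a dashed line. The 3 outlines nearly coincide, and array 1 has more probe sets just above the control level.

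Signal was concentrated in few probe sets. The 100 brightest held 20.5%, 17.8% and 17.2% of the summed signal on arrays 1, 2 and 3, and the 1000 brightest held 61.5% ± 2.27 (SD, n = 3). The probe sets of cytosolic ribosomal proteins together held 11.5% ± 0.832 (SD, n = 3). Means of at least 1000 were reached by 2228 probe sets. Of the 100 brightest probe sets, 12 had no symbol and 15 had several symbols, and these were not named.

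The brightest named genes were those of protein synthesis, of the epidermis and of fast muscle. Ribosomal protein genes made up 19 of the 30 brightest, 29 of the 50 brightest and 49 of the 100 brightest named genes, out of 74 measured. The first was rps29.S, a gene for a protein of the small ribosomal subunit, with signals of 32360, 33487 and 32243 on arrays 1, 2 and 3. Others among the 30 were rps27.S, rpl35a.S, rps2.L, rpl8.S, rplp1.L, rpl10a.S, rps13.L, rpl37.S, rpl32.L, rpl34.L, rps14.S, rpl10.S, rps19.S, rpl15.L, rplp0.S, rps12.L, rpl27a.L and rpl19.L, with means between 21660 and 31242. A pair of elongation factor genes of translation stood beside them, eef1a1.S with 32417, 27285 and 22145 and eef1g.L with 24635, 21017 and 21294. The brightest probe sets of rps29.S, rps27.S, rpl35a.S, rpl34.L, rps19.S and eef1g.L carried a suffix for several transcripts. So did those of krt70.S, atp2a1.S and fbp1.L among the 30. Other probe sets of rps29.S had means of 18861 and 10963, and a second of rpl34.L had 8.97, below the control level.

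A pair of epidermal genes ranked among the 5 brightest. itln1.L, which encodes intelectin, a lectin that goblet cells of the tadpole skin secrete, was second with 38235, 30605 and 29633. The keratin gene krt70.S, a keratin of the embryonic frog epidermis, was the fifth with 39234, 29778 and 24249. The signals of both varied more between arrays than that of rps29.S, and array 1 was the highest for each. Muscle entered with mylpf.L, the regulatory light chain of fast skeletal myosin (29236, 26383 and 26442), and with atp2a1.S, the calcium pump of the fast-muscle sarcoplasmic reticulum (28238, 21867 and 18011). A second probe set of atp2a1.S had a mean of 455. The remaining genes of the 30 were actb.L (cytoplasmic actin), ftmt.S (a ferritin), casc3.S (a protein of the exon junction complex), fbp1.L (an enzyme of gluconeogenesis) and XB5843130.S, which has no descriptive name in the gene table.

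**Figure D2:**
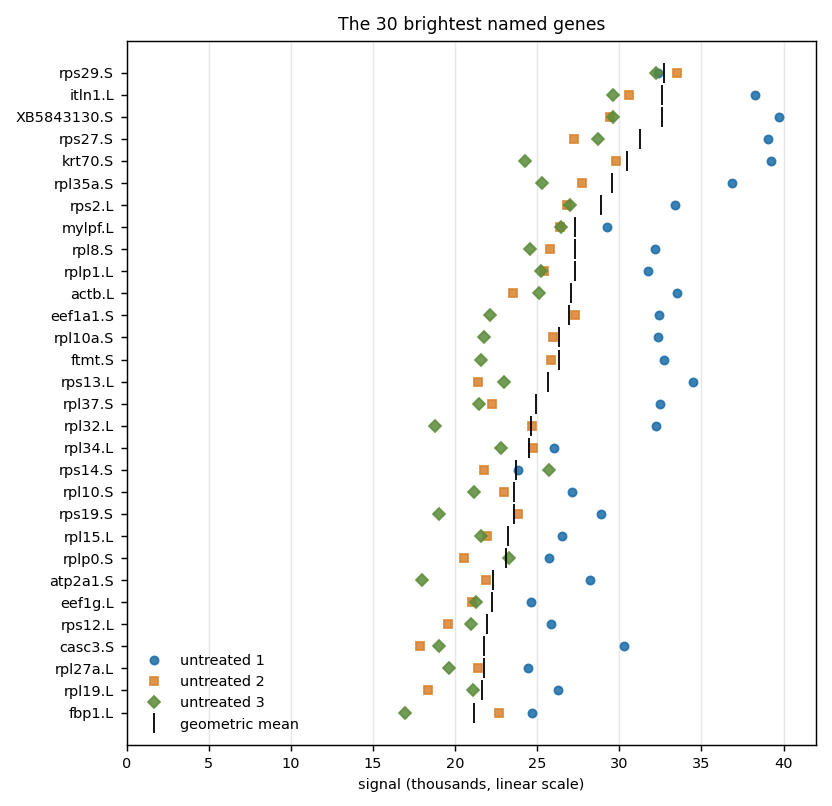
Signals of the 30 brightest named genes on the 3 untreated arrays (points, horizontal axis, linear, in units of 1000), with the geometric mean as a vertical tick. Array 1 gave the highest of the 3 signals for 28 of the 30 genes, the exceptions being rps29.S and rps14.S.

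Families of general cell function were bright as whole groups. The 74 ribosomal protein genes had a median signal of 16713, and 70 of them were in the brightest 10% of named genes. All 68 measured genes of the respiratory chain and ATP synthase lay above the control level, with a median of 2545, and so did all 24 glycolytic enzyme genes, with a median of 1743. Of all named genes, 84.4% lay above it. For splicing factors 67 of 68 were above it (median 2363), for translation factors 62 of 64 (2274), for proteasome subunits 51 of 52 (1409) and for heat shock proteins and chaperonins 54 of 56 (803). Tubulin genes were mixed: 14 of 18 were above it, with a median of 531 and values between 4.70 and 12280. Solute carriers were near the middle of the array, with 99 of 116 above the control level and a median of 315, against 258 for all named genes.

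The tissue lists differed widely in signal. Over 17 lists, 310 of 432 distinct genes (18 of them on several lists) lay at or above the control level, beside 84.4% of all named genes. Epidermal genes had the highest median of the 17 lists (1729), then muscle structural genes (799), genes of multiciliated cells and ionocytes (793) and kidney tubule genes (524). The order of the muscle and multiciliated lists depended on the processing. Without probe sets with suffixes for several transcripts the medians were 588 and 793, and with the median over probe sets 748 and 793. After quantile normalization they were 802 and 790. The other 13 lists had medians below that of all named genes, with head and anterior genes (23.0), yolk and liver secretory genes (24.5) and gut endoderm genes (43.0) at the low end. The lists hold genes of different kinds, so their medians order the lists by signal and not the tissues by size.

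**Figure D3:**
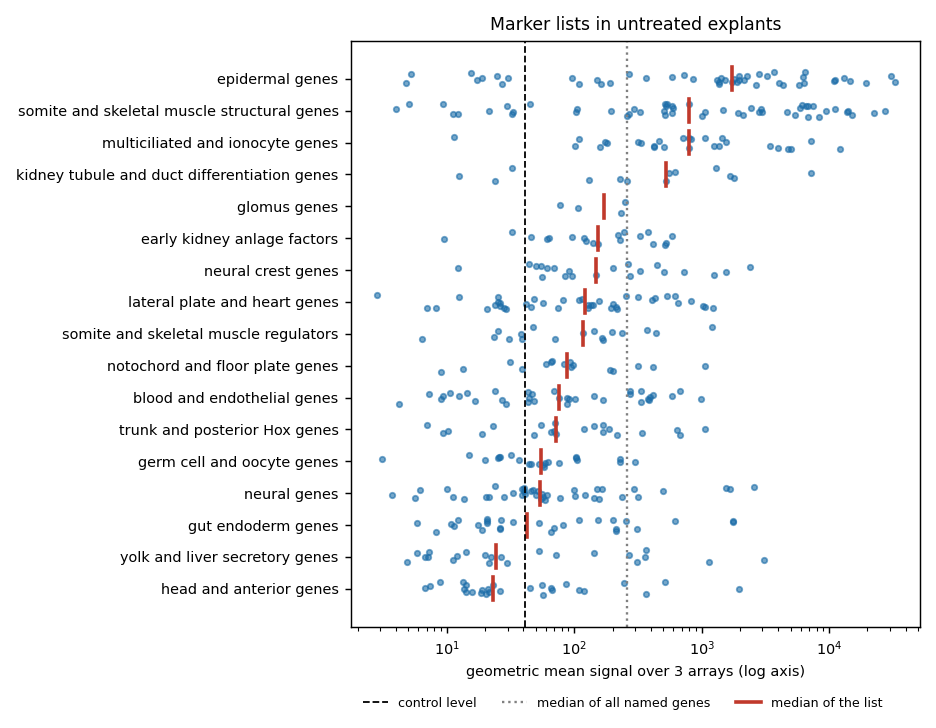
Mean signal over the 3 untreated arrays (log axis) of each measured gene of 17 marker lists (points, spread vertically for visibility), with the median of each list in red, the control level of 41.4 dashed and the median of all named genes, 258, dotted. Epidermal, muscle structural and multiciliated and ionocyte lists lie to the right and head, liver and gut lists to the left.

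Genes of the kidney rudiment gave moderate signal, and several of them are also used by other tissues of the flank. Of the 19 measured early kidney anlage factors, 17 (89.5%) lay above the control level, beside 84.4% of all named genes. Only 6 were above the median of named genes and none was in the brightest 10%. The list had a median of 155. The POU domain gene pou3f4.L was the brightest, with 642, 485 and 658, followed by tfap2b.L (407, 550 and 665) and the Iroquois homeobox gene irx2.L (382, 683 and 516). lhx1.L, a LIM homeobox gene needed for kidney formation, had 374, 488 and 401, so its 3 values lay close together relative to their distance from the control level. mecom.L, a zinc finger gene of the distal pronephros, had 306, 484 and 371, and gata3.S, a gene of the pronephric duct, had 226, 340 and 460. The 3 values of gata3.S differed by more than those of lhx1.L.

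Paired box genes of the rudiment were dim. pax8.L, which with lhx1 is among the first kidney genes, had 78, 53.9 and 55.8, and pax2.L had 158, 90.4 and 63.5 at the brightest of its 8 probe sets, of which 5 were above the control level. wt1.L, a zinc finger gene of the developing glomus where the pronephros filters, had 97.6, 47.2 and 54.6. All 3 were above the control level on every array. The zinc finger genes sall1.L (227, 229 and 284) and osr1.L (166, 127 and 135) and the homeobox genes irx3.L (253, 221 and 211), irx1.L (306, 180 and 194) and emx2.L (113, 103 and 142) lay between these groups. The other measured factors were the nuclear receptor gene hnf4a.S (91.8, 221 and 184), the T-box gene tbx2.L (147, 95.8 and 134) and pou3f3.S (67.7, 36.2 and 39.6), which was above the level on array 1 alone. Second probe sets of hnf4a.S and pou3f3.S had means of 18.6 and 8.54, below the control level. The receptor gene ret.S (23.4, 36 and 40.5) and eya1.L (5.8, 7.4 and 20.4) stayed below it on every array.

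Genes of the working tubule were fewer and uneven. Of 38 names on the list, 11 were measured, as 13 genes. Of these genes 10 (76.9%) were above the control level, beside 84.4% of all named genes. Which cells of the block gave their signals was not tested. The brightest was atp1b2.L, for a beta subunit of the sodium pump, with 8452, 6181 and 7025, which ranked 211 among named genes. atp1b1.S, for another beta subunit, had 983, 1468 and 3175, and its value on array 3 stood above the others. fxyd2.S, a small regulatory subunit of the pump, had 463, 678 and 739. The amino acid exchanger gene slc7a8.L had 1633, 1804 and 1960 (SD 0.13 on the log2 scale). slc3a2.S, the heavy chain that such exchangers pair with, had 1211, 1212 and 1518 (SD 0.19). The median SD of probe sets with means between 1024 and 2046 was 0.16. slc6a13.L, a carrier of the neurotransmitter transporter family, had 606, 515 and 561. The potassium channel gene kcnj10.L, slc5a11.L and slc3a2.L were below the control level by their means. All 4 measured glomus genes were above it and below the median of named genes, namely kirrel2.L (233, 235 and 294), foxc2.S (123.2, 254 and 409), cask.S (145, 85.1 and 99.2) and efnb2.S (106, 62.6 and 69.6).

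Many contractile genes of skeletal muscle were bright and most of its regulators dim. Of 51 measured structural genes, 42 (82.4%) lay above the control level, beside 84.4% of all named genes, and 20 were in the brightest 10%. After mylpf.L and atp2a1.S came the troponin genes of fast muscle, tnni2.S (15758, 14491 and 14804), tnnt3.S (16626, 12837 and 12128) and tnnc2.S (11187, 11808 and 10148), the creatine kinase gene ckm.L (16938, 12653 and 13108) and the myosin light chain gene myl1.L (8280, 10431 and 10035). Of the 17 measured regulators, 11 (64.7%) were above the control level. The list median was 116, or 70.4 when probe sets with suffixes for several transcripts were left out. The brightest was smyd1.L, a methyltransferase gene needed to assemble myofibrils, with 1420, 1352 and 926. Of the myogenic factors, myod1.S had 232, 174 and 189, myod1.L had 202, 129 and 170 and myf5.L had 179, 161 and 162, and both copies of myog lay below the control level by their means, although myog.L, with 55.7, 20.5 and 49.7, exceeded it on arrays 1 and 3. Also below it by their means were myh3.S and myh6.S among the myosin heavy chain genes, whereas myh8.L had 5999, 5820 and 5972.

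Most epidermal genes lay above the median of named genes. Of 47 epidermal genes, 39 (83.0%) were above the control level, beside 84.4% of all named genes, and 18 were in the brightest 10%. Beside itln1.L and krt70.S, keratin genes led the list: krt12.4.S (27449, 15881 and 16988), krt12.4.L (15800, 14378 and 13973), krt19.L (13688, 13628 and 12279), krt12.5.S (12016, 10630 and 11061) and krt8.1.S (10851, 8913 and 13193). The junction protein gene jup.L had 6304, 6899 and 6332. Not all keratin genes were bright. The means of krt17.S, krt62.L, krt12.2.L, krt61.L, krt12.2.S, krt78.7.L and krt78.6.L lay below the control level. The basal-layer factor tp63.L also stayed low, with 24.6, 35.1 and 23.1, all below the control level. The transcription factor genes grhl1.L (1139, 1582 and 1548) and dlx3.S (1871, 1746 and 1814) did not.

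Of 27 genes of multiciliated cells and ionocytes, the cells that move fluid over the skin and exchange ions with it, 26 (96.3%) were above the control level. The share of all named genes was 84.4%. The proton pump genes atp6v1e1.L (7547, 6284 and 7752) and atp6v1b1.L (4185, 3331 and 2986), the carbonic anhydrase genes ca2.S (4924, 5213 and 4312) and ca2.L (3917, 4123 and 3802), and the radial spoke genes rsph1.L (1662, 1532 and 1475) and rsph9.L (1566, 1319 and 1252) were among the brightest. tubb4b.L, a beta tubulin found in cilia and elsewhere, had 14922, 10901 and 11384. The dynein gene dnah9.S was the single member below the level, with a mean of 11.5.

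Genes of the lateral plate and heart were mostly below the median of named genes. Of 40 measured, 28 (70%) were above the control level, beside 84.4% of all named genes, and 10 were above the median of named genes. hand1.L, a basic helix-loop-helix factor of the lateral plate, had 924, 1200 and 1054, foxf1.L, a forkhead factor of the visceral layer, had 336, 434 and 555, and gata6.L had 730, 552 and 575. The RNA-binding protein genes rbpms2.S (1124, 1339 and 1217) and rbpms2.L (715, 1303 and 1178) and the growth factor gene bmp7.1.L (775, 820 and 878) were also bright. The heart factor genes nkx2-5.S, tbx20.L, tbx5.L and tbx5.S and the smooth muscle genes myh11.S, tagln.L and tagln.S had means below the control level, while the smooth muscle actin gene acta2.L had a mean of 531.

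Blood and endothelial genes were mostly below the median of named genes, which 11 of 35 (31.4%) reached. Of the 35, 24 (68.6%) were above the control level, beside 84.4% of all named genes, and the list median was 76.2. The brightest were nfe2.S, a transcription factor gene of red cells and megakaryocytes (986, 920 and 1054), the alpha globin gene hba-l5.L (780, 652 and 594), lmo2.S (571, 590 and 594), which acts in blood and vessel precursors, and the apelin receptor gene aplnr.L (294, 408 and 590), a gene of vessel precursors. The 5 probe sets of nfe2.S had means between 27.8 and 985, with 4 of them above the control level. mpo.L (447, 284 and 444) and spib.S (373, 305 and 326) are genes of early myeloid cells. Other globin genes were low: hba2.L, hba4.S, hbd.S and hbg1.L were below the control level, and hba1.S, hba3.L and hbg2.L had means between 43.5 and 48.0. gata1.S, the copy of the red cell factor gene with the lower signal, was below it too (mean 14.5), and gata1.L was close to it (43.2).

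Genes of the neural tube, the notochord and the head were mostly dim. Of 40 neural genes, 24 (60%) were above the control level, beside 84.4% of all named genes. The median of the neural genes was 53.5, and otx2.L, otx2.S, en2.L, en2.S and neurog2.L were below the control level. The brightest neural genes, sox11.S (1888, 2945 and 3125), syt1.L (1866, 1493 and 1672) and tubb2b.S (1545, 1649 and 1438), were well above the rest, and the neural plate factor sox2.L had 291, 218 and 215. A second probe set of sox2.L had a mean of 35.7, below the control level. Of 16 notochord and floor plate genes, 12 (75%) were above the level. The gene col2a1.S, a collagen of notochord and cartilage, had 870, 1261 and 1108, and the notochord factor genes tbxt.S, foxa4.L and foxa4.S were below the level. Another notochord factor gene, not.S, was above it on every array, with 131, 86.6 and 81.8, and not.L was below the level (mean 8.96). Of 27 head genes 12 (44.4%) were above it, led by agr2.S (1866, 2323 and 1786), a gene of secretory epithelium and cement gland. The eye field genes rax.L, rax.S, six6.L and six6.S were below it by their means. Others, six3.S, six3.L and pax6.L, were above the control level on every array. A second probe set of six3.S had a mean below the level, and 3 of the 6 probe sets of pax6.L had means above it.

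Neural crest genes stood higher, with 20 of 21 (95.2%) above the control level, beside 84.4% of all named genes. The median of the list was 148, beside 258 for all named genes. It was 96.0 when the median over probe sets stood for a gene or when probe sets with suffixes for several transcripts were left out. The brightest were id3, listed without a suffix at a mean of 2404, id3.S (1129, 1750 and 1847) and mycn.L (1173, 1234 and 1319), which many tissues use. They were followed by snai1.S (665, 757 and 759), a repressor of the epithelial state.

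Endoderm and yolk products were low. Of 28 gut endoderm genes 14 (50%) were above the control level, beside 84.4% of all named genes. The genes sox17a.L, sox17a.S, sox17b.1.S, hhex.L and cer1.S were not, while a2m.S (1717, 1869 and 1707) and darmin.L (1930, 1785 and 1579) were bright. Of 22 yolk and liver secretory genes, 9 (40.9%) were above the control level, with apoe.L (3611, 2929 and 2734), a lipid carrier, as the brightest. The vitellogenin genes vtga2.L and vtgb1.L were below it. Of 22 germ cell and oocyte genes, 14 (63.6%) were above it and 1, ddx4.L (304, 325 and 274), a helicase gene of the germ line, exceeded the median of named genes. As markers of cells that a flank block should lack, all 3 measured odorant receptor genes and 19 of 27 eye and photoreceptor genes were below the control level. The brightest of the 8 eye genes above it (29.6%) was gnb3.L, a G protein subunit gene, at a mean of 4042.

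The Hox genes, whose paralog groups are expressed in order along the body axis, gave signal mainly in the lower groups. All 13 measured genes of groups 2 to 8 lay above the control level, with means between 48.6 and 1061 and a median of 170. Of 8 measured genes of groups 9 to 13, 3 did, and the median of the 8 was 21.1. Over all 21 Hox genes, 16 (76.2%) were above the control level, beside 84.4% of all named genes. hoxa3.S was the brightest (961, 1124 and 1105), then hoxc5.L (714, 626 and 709), hoxb4.S (605, 696 and 618) and hoxc6.S (401, 315 and 320). hoxb9 was the brightest of the higher groups with 143, 110 and 111, and hoxd10.L and hoxd13.S were the others above the level. The means of hoxd9, hoxc10.L, hoxa11.S, hoxc12.L and hoxa13.S stayed below it, although on array 1 hoxa11.S and hoxd9 exceeded it with 76.4 and 47.6.

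**Figure D4:**
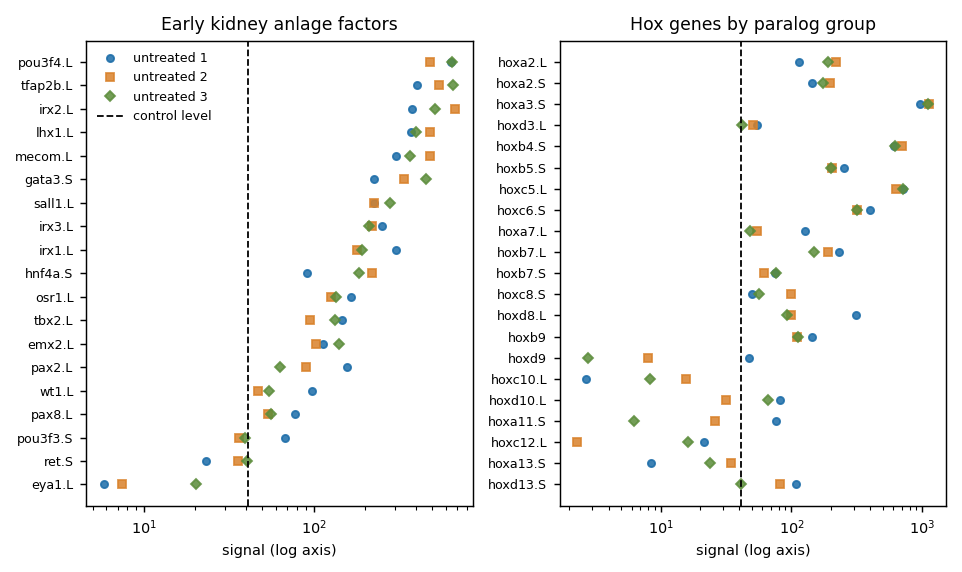
Signal on each untreated array (log axis) of the 19 measured early kidney anlage factors, ordered by mean (left), and of 21 Hox genes, ordered by paralog group (right), with the control level of 41.4 dashed. Kidney factors spread between eya1.L below the level and pou3f4.L, and Hox genes above the dashed line on all arrays are the 13 of groups 2 to 8 and hoxb9.

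Arrays 2 and 3 were closer to each other than to array 1. Across the 15491 probe sets, log2 signals correlated at r = 0.966 between arrays 2 and 3, 0.951 between arrays 1 and 2 and 0.949 between arrays 1 and 3, a description across probe sets that are not independent. The median SD of log2 signal over the 3 arrays was 0.264 for all probe sets. It was 0.760 for those below the control level and fell with signal to 0.147 for means between 2051 and 4092, above which it was 0.173. For means between 2051 and 4092 the highest and lowest arrays of a probe set differed by a median of 1.21-fold. Of the 7746 probe sets at or above the median signal, array 1 was the farthest from the other two for 3572 (46.1%), array 2 for 2088 and array 3 for 2086. A deviation over 2-fold was found for 106 probe sets on array 1, 0 on array 2 and 21 on array 3. Hybridization controls were brightest on array 1, with medians of 2235, 1233 and 879 on arrays 1, 2 and 3. The ratio of 3′ to 5′ signal, a measure of RNA integrity, was highest on array 1 for Gapdh (4.1, 3.59 and 3.31) and lowest there for actin (0.191, 0.344 and 0.342). The part of these in the differences between arrays was not tested.

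Of the 10 genes that varied most between pools, 9 had array 1 as the array farthest from the others, below them. Among the 4611 genes at or above the median probe set signal, the largest SDs were those of c1orf52.S (107, 300 and 416) and cnn2.L, a calponin gene of the actin cytoskeleton (519, 1743 and 1787). The next was sdc4.S, a cell surface proteoglycan gene (661, 1973 and 2311). For cnn2.L and sdc4.S, arrays 2 and 3 were close together and array 1 lay 1.77 and 1.69 lower on the log2 scale. foxc2.S, atp1b1.S, sdha.S, net1.S, aldh3a2.L, gigyf1.S and dync1li1.L followed, with SDs between 0.79 and 0.87, and atp1b1.S was the one in which array 3 was the farthest, higher by 1.4. At the other end, aars1.L, a tRNA synthetase gene, had 1170, 1168 and 1171, and camlg.L, incenp.S, sod1-A and flvcr2.L had SDs of at most 0.0051.

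Some lists shifted between arrays as a group. The 20 neural crest genes above the control level had a median deviation from their own mean of -0.15 on array 1, 0.06 on array 2 and 0.13 on array 3 (log2), and 4 of the 20 were above their mean on array 1. With quantile normalization, chosen after the values were seen, the values were -0.16, 0.05 and 0.15, again with 4 of 20 above. Ribosomal protein genes deviated by 0.16, -0.02 and -0.14, with 63, 30 and 10 of 72 above their mean on arrays 1, 2 and 3, but after quantile normalization by -0.035, 0.04 and -0.00, so their direction on array 1 turned round with the scaling. The 24 glycolytic genes kept theirs (0.13 on array 1 as deposited and 0.11 after quantile normalization). All named genes together deviated by 0.00, 0.01 and -0.01. The lists named here were chosen after their values were seen. Others deviated by more on array 1 as deposited, such as eye and photoreceptor genes (0.31, 8 genes) and Hox genes (0.19, 16 genes). The 21 measured neural crest genes stood for 14 gene names, with copies counted apart. No test was made of these list values.

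The .L and .S copies of a gene could be set side by side for 1017 pairs, of which 947 had at least 1 copy above the control level. Both copies exceeded it in 826 pairs, the .L copy alone in 63 and the .S copy alone in 58. Within each array the log2 signal of the .S copy was subtracted from that of the .L copy, and the 3 differences were tested against 0 with limma across all 947 pairs. The test passed for 724 pairs (76.5%), with the .L copy higher in 417 (44%) and the .S copy higher in 307 (32.4%) at a Benjamini-Hochberg adjusted p under 0.05. The .L copy was higher on all 3 arrays in 471 pairs and the .S copy in 348, and 128 were mixed. The median .L minus .S difference was 0.27 and the median size 1.13 on the log2 scale.

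Differences of this size also arise between probe sets of a single gene. For 864 genes with exactly 2 probe sets and at least 1 of them above the control level, the same fit passed for 627 (72.6%), with a median size of 1.23. Sizes over 2-fold were found in 55.3% of homeolog pairs and 56.8% of these genes, and sizes over 8-fold in 12.25% and 16.8%. Where both members of a pair were above the control level, the median sizes were 1.00 for homeologs and 0.95 for probe sets of 1 gene. A passing test therefore shows that the signals differed beyond the spread between arrays, and a difference in RNA between the copies cannot be told apart from a difference in probe response. The mean log2 signals of the copies correlated at r = 0.60 over the 947 pairs, and those of 2 probe sets of a gene at r = 0.47 over the 864 genes, as descriptions across genes measured on the same arrays.

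**Figure D5:**
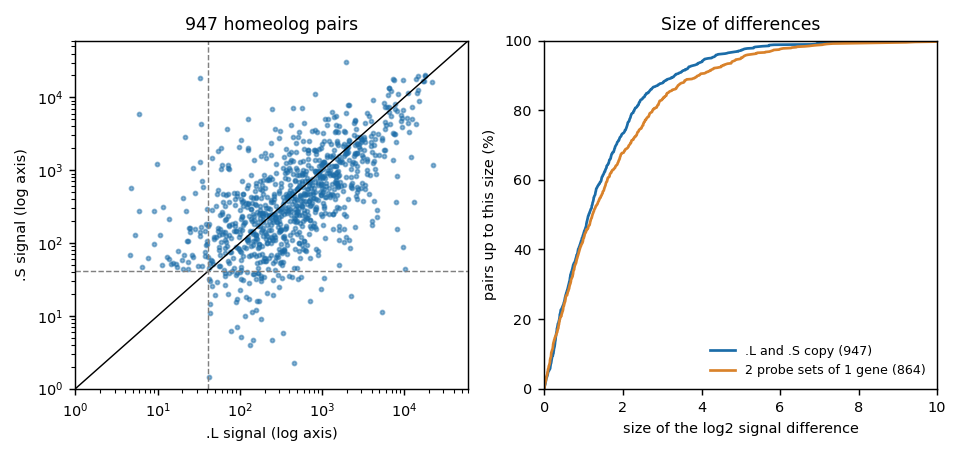
Left, mean signal of the .S copy (vertical) against that of the .L copy (horizontal) for 947 homeolog pairs, both axes logarithmic, with the line of equal signal and the control level of 41.4 dashed. Right, cumulative share of pairs (percent) by size of the log2 signal difference, for homeologs (947) and for 2 probe sets of 1 gene (864), where the curves lie close together up to about 1 and homeologs reach higher shares beyond.

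As groups, .L and .S genes were measured at like signals. The array named 4307 .L genes, of which 84.4% lay above the control level, and 2956 .S genes, of which 85.5% did, with median signals of 254 for .L and 276 for .S. In pairs with both copies above the median signal of probe sets, 566 in all, 404 (71.4%) passed, beside 76.5% of all 947 pairs. Of the 404, 247 (61.1%) had .L higher and 157 .S higher, beside 57.6% with .L higher among all passing pairs. The median difference was 0.26, toward .L, whereas the group medians, which include genes without a measured partner, were higher for .S.

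The pairs named next were those of largest fitted difference, and where a copy lay below the control level that difference rests on a signal not told from background, so a bound is given and the fitted size gives no rank. In favour of .L, tpm2, a tropomyosin gene, had signals of 5710, 4987 and 5395 for .L and 11.3, 13 and 9.5 for .S. The .L signal was thus at least 129-fold higher when the .S copy was set to the control level (adjusted p = 1.2e-18 in limma). nap1l1, a histone chaperone gene, had 13728, 9249 and 8523 for .L against 42.6, 47.9 and 40.8 for .S, a difference of 7.88 ± 0.19 (SE, n = 3, limma adjusted p = 1.5e-18). The .S mean of 43.7 lay just above the control level and array 3 below it, so this size too rests on a signal near background. nap1l1.L had 2 probe sets, and with the median over probe sets the difference was 6.28. With both copies above the control level, .L also led for eif3a (6.79 ± 0.17), a translation initiation gene, and the proteasome gene psma3 (5.71 ± 0.18). With a .S copy below it, the bounds were 51.8-fold for bcat1, 11-fold for sds, 8.01-fold for furin and 5.89-fold for cfb. The last 3 bounds are smaller than the 35.9-fold ratio of krt19, a pair with both copies above the level. For eif3a the .L copy had 3 probe sets and the .S copy 2, and for psma3 each had 1.

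In favour of .S, rpl28 had the largest bound of the 8 pairs named. rpl28.L had 50.3, 28.5 and 24.9 and rpl28.S 21073, 18101 and 16445, so that .S, for a protein of the large ribosomal subunit, was at least 418-fold higher (limma adjusted p = 2.1e-19). tuba1c.S, an alpha tubulin gene, was at least 144-fold higher than tuba1c.L, whose 3 signals were 9.2, 4.1 and 5.4. nme2 had a bound of 97.0-fold, but the pair was lost when probe sets with suffixes for several transcripts were left out. The slow and cardiac troponin gene tnnc1 had 41.2, 30.8 and 7.6 for .L and 2569, 2833 and 3340 for .S (.S at least 70.0-fold higher). The lactate dehydrogenase gene ldhb, with both copies above the control level, differed by -5.72 ± 0.18, a .S signal 52.8-fold higher. The bounds were smaller for vangl2, a planar polarity gene (at least 29.0-fold), tubg1 (at least 13.7-fold) and numa1 (at least 6.69-fold).

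The pairs with both copies above the median and the smallest differences were rps3a, ybx2, cbfa2t2, dctn2, cnn2, mpo, wee1 and tgm2, with sizes up to 0.0078. rps3a.L had 19306, 15686 and 15434 and rps3a.S 20142, 15013 and 15422. For cnn2 the mean difference of 0.00 hid opposite signs, with 519, 1743 and 1787 for .L and 1054, 1258 and 1207 for .S.

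Of 74 homeolog pairs on the tissue lists, 56 passed the limma test, 32 with .L and 24 with .S higher, beside 76.5% of all 947 pairs. Beside tpm2 and tnnc1, krt19 differed by 5.17 ± 0.15 (SE, n = 3; limma adjusted p = 1.0e-16), a .L signal 35.9-fold higher with both copies above the control level. For slc3a2 the .L copy lay below that level on every array and .S was at least 31.6-fold higher (limma adjusted p = 1.2e-14). For the myosin light chain gene myl4, with both means above it, .S was 32.5-fold higher. myl4.L was close to the level, with 37.6, 48.2 and 51.2 on arrays 1, 2 and 3. Among pairs that did not pass was myod1, for which .L had 202, 129 and 170 and .S 232, 174 and 189 (difference -0.26 ± 0.21, limma adjusted p = 0.26), and another was the plakoglobin gene jup (0.04 ± 0.14, limma adjusted p = 0.80). These were not shown to be equal, since the 3 arrays limit what the test can detect.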

How the data were processed

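RNA of 3 untreated pools was hybridised to 1-colour Affymetrix arrays after amplification of 1 µg into biotinylated targets, per the labels' protocols. The values deposited by the authors are intensity values (signals) per probe set on a linear scale. Per the submitters' processing notes MAS5 made them, but the sources used here give neither its version nor its settings. MAS5 generally corrects for mismatch probes and scales arrays to a common level, and the trimmed means of the untreated arrays were all 500.1. Dim signals are therefore noisy, and the number of arrays limits precision. Of 15611 probe sets 120 array controls were left out. Of the other 15491, 195 had several symbols and 5992 none. Older symbols were brought up to date with the RefSeq table of Xenopus_laevis_v10.1, used for names alone (9227 probe sets matched, 77 kept the symbol of the platform). No sequences were used here.

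Differences between .L and .S copies, and between 2 probe sets of a gene, were fitted with limma 3.58.1 in R 4.3.3 on log2 signals within arrays (intercept, eBayes with a variance trend on the mean log2 signal, two-sided, Benjamini-Hochberg over all pairs). Pairs needed 1 member at or above the control level. For "at least" ratios a copy whose mean lay below that level was raised to it on each array where it was lower. The alternatives were other representations of a gene, quantile normalization, an offset, other filters, no variance trend and leaving out each array. Named were the 30 brightest genes, all measured kidney anlage factors, genes among the 8 brightest of each list, the 8 homeolog pairs at each end and nearest 0, the 4 largest pairs on tissue lists, and the 10 most and 5 least variable genes. Others, chiefly list members below the control level, were chosen after their values were seen. The arrays and the lists were chosen with earlier results of these data known.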

Additional observations from a re-analysis of the deposited data

Results flagged for a closer look

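A control probe set named for the reporter d2EGFP, which was left out of the descriptions above, had a mean signal of 58.8, over the control level of 41.4. Its signals were 174, 30 and 39.1 on untreated arrays 1, 2 and 3, so it exceeded the level on array 1 alone.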

How the results depend on the processing

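Counts of probe sets above the control level lay between 10750 and 12180 over 7 alternatives, and counts of homeolog pairs past the limma test between 524 and 740 over 11, the lowest from the 693 pairs with 1 probe set per copy. The 16 named pairs of large difference kept their direction and passed the test in all 158 refits that held them. They were chosen for large fitted differences on the same arrays, so this count is no independent support. With an offset of 32 added to the signals, the log2 differences of all 16 were smaller in size, which adding a constant to both copies always brings about. The log2 value itself changed by a factor over 1.5 for sds (3.81), furin (3.26), cfb (2.86), tubg1 (-4.00) and numa1 (-2.94). Smaller factors on the log2 scale were still large in signal, as for tuba1c (-9.98 to -7.29), vangl2 (-6.95 to -4.84) and tpm2 (8.90 to 6.96). With the median over probe sets, the factor exceeded 1.5 for furin (3.28) and numa1 (-3.47). Leaving out 1 array gave between 631 and 727 passing homeolog pairs and between 551 and 630 passing pairs of probe sets of 1 gene. Of the 50 brightest genes, 37 were shared when the median over probe sets stood for a gene, 36 when probe sets with suffixes for several transcripts were left out, 47, 49 and 47 without array 1, 2 or 3, and all 50 after quantile normalization; ribosomal protein genes numbered between 28 and 31 among the 50. The median SD between arrays was 0.219 for probe sets above the control level only and 0.188 for those above the median only, and between 0.172 (without array 1) and 0.246 with 1 array left out. Of 102 list medians recomputed, 82 moved by less than 1 SD between arrays, and those of neural crest genes (96.0) and muscle regulators (70.4) moved by over 1.5 times. Without suffixed probe sets the median of muscle structural genes fell from 799 to 588 and that of epidermal genes from 1729 to 1408. The median of kidney anlage factors lay between 131 and 187 over the alternatives. The ribosomal deviation on array 1 was 0.16 as deposited and -0.035 with quantile normalization, a setting chosen after seeing the data. No paired analysis was possible because replicate numbers pair samples of different groups and 1 group alone was used; the .L and .S copies were compared within each array. Signal over background limits the dim genes: fitted differences against copies below 41.4 chose which homeolog pairs were named, and for those pairs the bounds are the values to read.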

Other observations

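Among lists not described above, 15 of 18 measured histone genes lay above the control level, with a median signal of 460 over the 3 untreated arrays. Extracellular matrix genes had 26 of 29 above it and a median of 192. Genes for adult pancreas and gut enzymes were mostly dim, with 6 of 17 above it and a median of 16.4, beside 84.4% of all named genes above it and their median of 258.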
